A study of Mus musculus with 9 samples.

Results

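The response of HPC7 cells to wild-type Snai1 was described across all genes that passed a filter on low counts, 12484 of the 27179 gene identifiers in the deposited count table. HPC7 cells are an established mouse progenitor line of the blood, kept immature by the cytokine stem cell factor. The members were defined by the comparison itself, the 3 libraries of cells carrying wild-type Snai1 against the 3 libraries of cells carrying the empty vector, 6 of 9 libraries in all. Every group was grown in RPMI medium with 10% fetal calf serum, 0.05 mM 2-mercaptoethanol and 100 ng/ml stem cell factor, was transduced with an MSCV-IRES-GFP retrovirus, and was sorted for green fluorescence 1 week later. The vector held either no gene (empty vector), wild-type Snai1 cDNA or a mutant Snai1 cDNA in which residue 5 was changed from phenylalanine to alanine. The viral promoter, not the cell's own Snai1 promoter, thus drove the added Snai1 in cells that keep their own copy of the gene. Nothing in the labels tells if the replicates came from separate cultures or transductions, and the spread behind each p-value may thus be technical only.

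Snai1 encodes a zinc finger repressor of the Snail family. Its zinc fingers bind the E-box CAGGTG, and the SNAG domain at its start recruits the histone demethylase Lsd1, encoded by Kdm1a, together with CoREST and histone deacetylases. The family is best known for lowering E-cadherin and other junction genes during the epithelial to mesenchymal transition. Blood cells use related SNAG proteins, Gfi1 and Gfi1b, which recruit the same demethylase, to hold back genes of other lineages. The mutated phenylalanine lies in the SNAG domain, and the change impairs the contact with Lsd1.

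The Snai1 gene (chromosome 2, 167538195 to 167542814 on GRCm38, the assembly behind mm10) separated the empty vector from both Snai1 vectors. It did not separate the wild type from the mutant, whose levels overlapped. As TPM (counts divided by gene length and scaled to a common sum, so that levels of genes can be compared), it was at 1.497, 1.13 and 1.11 with empty vector, at 646, 734 and 832 with the wild type and at 712, 654 and 746 with the mutant. These counts include reads of the vector's transcript as well as of the cell's own gene. Kdm1a was at 148, 165 and 169 TPM with empty vector and 163, 153 and 162 TPM with wild-type Snai1, so the groups overlapped. Its log2 fold change was 0.01 (SE 0.05), with an adjusted p of 0.916 in edgeR's quasi-likelihood test, and the sign of a value this near 0 changed with the scaling.

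All 15 progenitor markers checked were detected and tested, and 3 were called higher and 5 lower, beside 25.2% and 24.3% of all tested genes. Without wild-type replicate 1 the markers called were 5 and 7. Calls over all tested genes also rose in that setting, from 3143 higher and 3029 lower to 3779 and 3631. The stem cell factor receptor Kit was at 1589.6, 1724 and 1735 TPM with empty vector and 1695, 1514 and 1470.4 TPM with wild-type Snai1, and the LIM factor Lhx2, by which this line was made, was at 42.1, 44.4 and 43.1 and 38.3, 68.1 and 71.3 TPM. Of the marker lists of other cells, 6 of 17 T and NK cell genes, 3 of 14 B cell genes, 3 of 13 endothelial genes and 5 of 12 fibroblast genes had 0 counts in all 6 libraries. Those at 0 included Cd3e, Pax5, Cldn5 and Col3a1, which define these cells. The summed level of the T and NK list was 573 to 677 TPM in the control and 539 to 548 TPM in the wild-type libraries, nearly all of it from Nkg7, a granule gene. The B cell list summed to 11.1 to 14.5 and 11.4 to 16.3 TPM, the endothelial list to 615 to 729 and 556 to 711 TPM, and the fibroblast list to 403 to 467 and 212 to 312 TPM in the same order. The fibroblast sum came from Pdgfrb and Fap, which fell, with log2 fold changes of -0.39 (SE 0.09) and -0.999 (SE 0.19), and the endothelial sum from Pecam1 and Tie1, neither of which was called. Of 5 tested endothelial genes only Plvap was called, at 0.77 (SE 0.10). Without wild-type replicate 1, 3 of the 5 were called higher and the median of the list was 0.51, against 0.02 with it. The part of any other cell in the results was not tested.

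Total counts lay between 18332451 and 20860314 per library, so that 3 counts corresponded to 0.144 to 0.164 CPM (counts scaled to library size). In empty vector replicate 1, a single identifier with no symbol took 3.62% of the counts, and Lars2, a mitochondrial tRNA synthetase gene, was also high. The 100 highest genes held 28.4% of all TPM in that library, against 20.9% and 20.6% in empty vector replicates 2 and 3. As TPM has a common sum, a larger share at the top leaves less for the other genes. Wild-type replicate 1 stood apart from the other two: 133 genes lay at least 1 log2 unit above both of them and 334 below, against 10 and 19 for replicate 2 and 26 and 18 for replicate 3. Without wild-type replicate 1, 3779 genes were called higher and 3631 lower.

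Wild-type Snai1 was followed by a change in 49.4% of all tested genes, most of them small. At an adjusted p under 0.05, 3143 genes were higher (25.2% of those tested) and 3029 lower (24.3%), while 6933 genes had an unadjusted p under 0.05. The median called change was 0.52 log2 units upward and -0.55 downward, and 74.8% of the called genes changed less than 2-fold. In bulk RNA, fewer cells of a kind and less RNA per cell cannot be told apart. At 2-fold or more the numbers were 840 higher (6.73%) and 715 lower (5.73%). Large rises outnumbered large falls, with 356 (2.85%) against 227 (1.82%) genes at 4-fold and 202 (1.62%) against 83 (0.665%) at 8-fold. At 16-fold there were 118 (0.945%) against 25 (0.2%), and at 64-fold 56 (0.449%) against 3 (0.024%). With genes at 0 counts in a group placed at their lower bound, the 64-fold numbers were 33 and 1, the 16-fold numbers 102 and 23, and the 8-fold numbers 194 and 81.

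**Figure D1:**
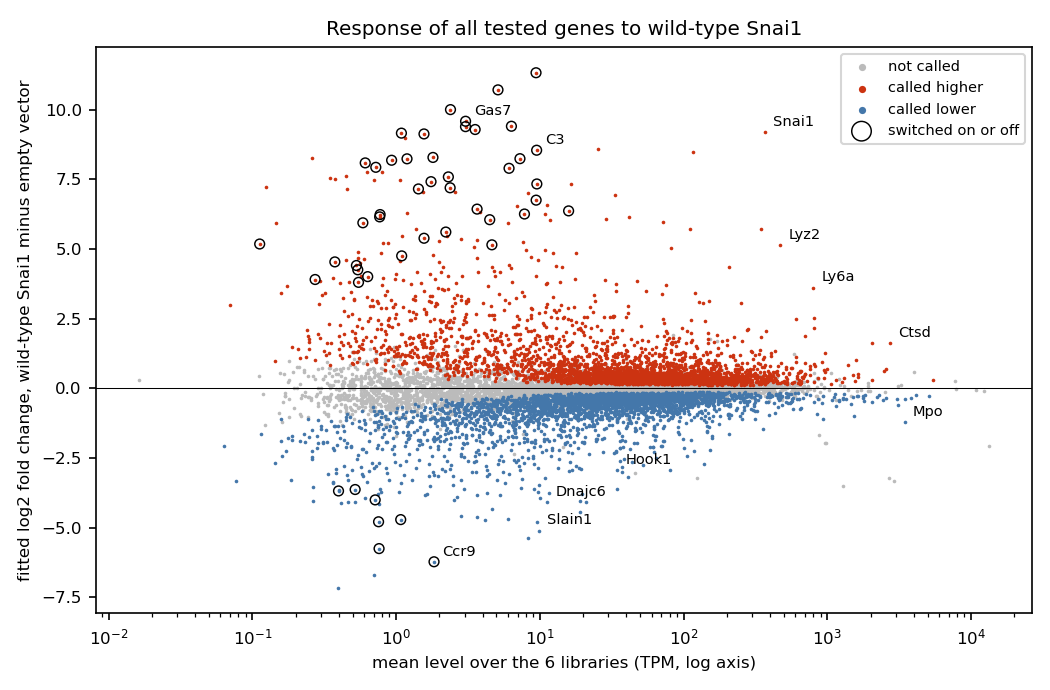
Fitted log2 fold change of wild-type Snai1 over empty vector (vertical) against the mean TPM of the 6 libraries (horizontal, log axis), 1 point per tested gene, with the 41 genes switched on and the 7 switched off circled. Genes called higher reach further from 0 than genes called lower, and the widest changes lie at low levels, where a fold depends on few counts.

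Wide changes made up a smaller share of genes at higher levels. Among 739 genes with a mean of under 1 TPM over the 6 libraries, 20.2% were called at least 2-fold higher and 18.4% at least 2-fold lower. Between 1 and 10 TPM (2446 genes) these shares were 14.8% and 13.5%, and between 10 and 100 TPM (6980 genes) 3.57% rose that far and 220 genes fell that far. Among 2319 genes at 100 TPM or more, 3.41% and 1.21% changed that far. In that top class 34.5% of genes were called higher at any fold and 18.5% lower, whereas between 1 and 10 TPM more genes were lower (27.8%) than higher (21.8%). A low gene could pass the filter through 1 group alone, so the lowest class favours genes that differ.

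The lowered genes with the smallest p were of mixed function. Dnajc6 encodes auxilin, which strips clathrin from vesicles. It was at 20.3, 22.3 and 21.3 TPM with empty vector and 1.22, 1.296 and 1.201 TPM with wild-type Snai1. The groups did not overlap, and the level fell by 4.08 (SE 0.08) on the log2 scale (adjusted p 8.80e-10). Hook1, which links cargo vesicles to microtubules, went from 54.5, 63.5 and 66.6 to 8.89, 7.58 and 7.31 TPM and fell by 2.94 (SE 0.08). Slain1, a factor of growing microtubule ends, went from 18.1, 19.4 and 20.2 to 0.482, 0.682 and 0.473 TPM and fell by 5.11 (SE 0.14). Nup210, a membrane protein of the nuclear pore, went from 58.8, 66.5 and 72.7 to 7.63, 7.68 and 8.999 TPM and fell by 3.00 (SE 0.08). In each of these genes the wild-type libraries lay close together and far under every control. The remaining log2 fold changes were -3.80 (SE 0.10) for the chaperone gene Hspa4l, -2.71 (SE 0.07) for the phospholipid flippase Atp8a1, -2.62 (SE 0.07) for the ciliary trafficking gene Lztfl1 and -2.33 (SE 0.06) for Ccdc88c, which encodes the Dishevelled partner Daple. All of these 7 had an adjusted p of 3.66e-09.

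Promoters of the genes that changed at least 4-fold with the smallest p and that hold CAGGTG or its reverse complement CACCTG within the 250 bases before the start are shown because this hexamer is the E-box of Snail proteins. The 4 lowered genes are Hook1, Nup210, Slain1 and Chrnb1, a subunit of the muscle acetylcholine receptor that went from 36.96, 40.6 and 42.2 to 2.07, 2.99 and 1.92 TPM. The 2 raised genes are Snai1 itself and Stab1, a scavenger receptor of macrophages and sinusoidal endothelium that went from 0.758, 0.929 and 0.897 to 11.1, 12.3 and 12.6 TPM. Each line gives 100 bases, 5′ to 3′ on the gene's strand, from RefSeq on GRCm38.p6, with the hexamer in capitals.
Hook1 (chr4:95967248-95967347, plus strand): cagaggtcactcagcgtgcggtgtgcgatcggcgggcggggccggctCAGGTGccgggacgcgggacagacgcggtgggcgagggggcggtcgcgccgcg
Nup210 (chr6:91116827-91116926, minus strand): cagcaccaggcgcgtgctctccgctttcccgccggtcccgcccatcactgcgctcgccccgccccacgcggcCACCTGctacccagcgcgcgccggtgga
Slain1 (chr14:103650029-103650128, plus strand): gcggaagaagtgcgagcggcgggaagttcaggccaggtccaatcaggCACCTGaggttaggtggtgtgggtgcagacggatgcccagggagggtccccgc
Chrnb1 (chr11:69795938-69796037, minus strand): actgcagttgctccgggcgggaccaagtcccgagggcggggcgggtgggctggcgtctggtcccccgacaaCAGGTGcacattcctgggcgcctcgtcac
Snai1 (chr2:167538022-167538121, plus strand): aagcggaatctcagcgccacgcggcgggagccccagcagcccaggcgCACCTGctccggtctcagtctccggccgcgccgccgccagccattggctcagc
Stab1 (chr14:31168767-31168866, minus strand): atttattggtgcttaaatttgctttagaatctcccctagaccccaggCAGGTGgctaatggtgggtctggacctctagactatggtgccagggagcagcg

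The hexamer begins 84, 28, 152 and 29 bases before the first listed start in Hook1, Nup210, Slain1 and Chrnb1, and 126 and 178 bases before it in Snai1 and Stab1. Chrnb1 fell by 4.08 (SE 0.13) and Stab1 rose by 3.82 (SE 0.14) on the log2 scale. For Snai1 the files cannot separate its own transcript, which this promoter drives, from that of the vector. A match says nothing of whether Snai1 was bound there.

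The share of promoters with the hexamer was highest among genes lowered by wild-type Snai1, counted in 300 bases from 250 before to 50 after the first listed start. RefSeq promoters were matched to 9568 tested genes. CAGGTG or CACCTG, searched on both strands, stood in 31.1% of 167 promoters of genes at least 4-fold lower, 26.8% of 530 at least 2-fold lower and 21.5% of 2366 called lower. It stood in 16.1% of 4731 promoters of genes that were not called, 13.6% of 2471 called higher and 14.4% of 270 at least 4-fold higher. Over all 27025 genes with a listed promoter the share was 20.03%. Counted over any listed start of a gene, the shares were 35.9% at least 4-fold lower, 19.5% not called and 20% at least 4-fold higher. No test was run on these shares.

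Other E-boxes, searched after these values were seen, did not follow that order. CAGCTG was in 14.97% of promoters of genes at least 4-fold lower, 13.4% of those not called and 21.1% of those at least 4-fold higher. CACGTG was in 5.99%, 10.6% and 5.56% in the same order. Median GC content was 60.3% in promoters of genes not called, 60.3% at least 4-fold lower and 54% at least 4-fold higher. The median number of CpG sites (a C followed by a G) was 21, 17 and 6 in the same order. The part of base composition in these shares was not tested.

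**Figure D2:**
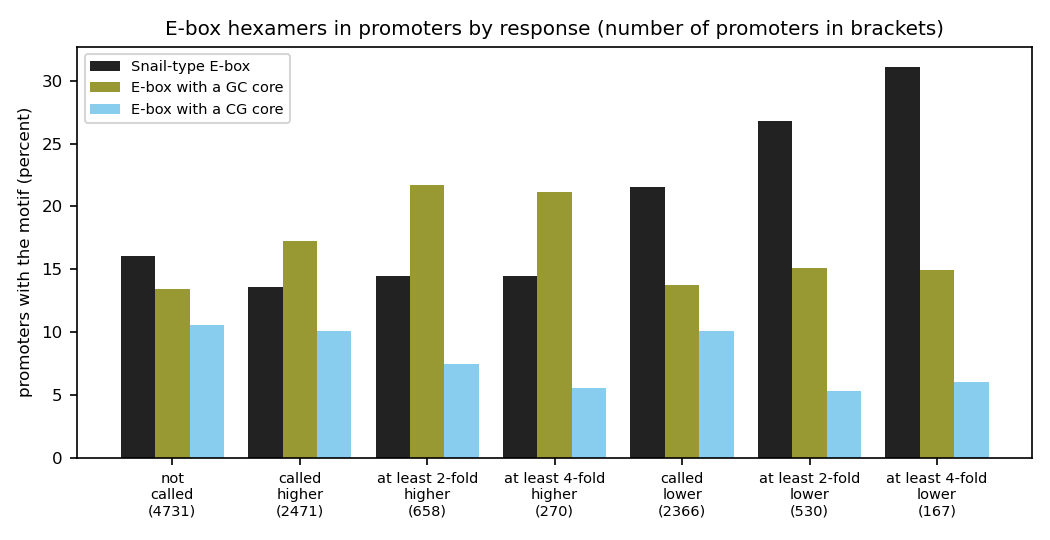
Percent of promoters (vertical) holding the Snail-type E-box (CAGGTG or CACCTG), the E-box with a GC core (CAGCTG) or the E-box with a CG core (CACGTG), by class of response, with the number of promoters in brackets. The Snail-type share climbs from 16.1% in genes not called to 31.1% in those at least 4-fold lower, and is 14.4% in those at least 4-fold higher.

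The raised genes with the smallest p included chemokine, complement, surface and signalling genes. Behind Snai1 stood Ly6a, the stem cell antigen Sca-1, whose reads are uncertain because its relatives are nearly identical. It was at 102, 131 and 134 TPM with empty vector and 1514, 1519.5 and 1400.2 TPM with wild-type Snai1. On the log2 scale it rose by 3.62 (SE 0.10), with an adjusted p of 3.66e-09. Ccl2, the chief chemoattractant of monocytes, went from 159, 201 and 201 to 1073, 999 and 1021 TPM (log2 fold change 2.48, SE 0.07). Each control library lay far under each wild-type library in both genes. Spin4, an X-linked reader of histone methylation, rose by 3.82 (SE 0.13), the amyloid precursor relative Aplp2 by 1.53 (SE 0.06) and the stress gene Ndrg1 by 2.40 (SE 0.09), all with adjusted p of 2.19e-08 to 3.29e-08.

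Among genes silent in controls, 41 switched on. Here silent means at most 3 counts in each library and on means at least 1 TMM-scaled CPM in each. Of 13573 identifiers silent in every control, 12846 were silent in every wild-type library too. The switch is defined by the same counts it describes, so no test is given for it. The group held 40 protein-coding genes and the long noncoding RNA Gm10825, and 13 of them had 0 counts in all 3 controls. Their mean level with wild-type Snai1 ran from 0.220 to 31.4 TPM with a median of 3.61, so the switched on genes were low in absolute terms. Summed, they reached 2.19, 2.34 and 1.52 TPM in the controls and 237, 262 and 318 TPM in the wild-type libraries, a mean of 0.0272% of all TPM. At the edges of the rule, Cd86 was just inside (0 control counts, lowest wild-type level 1.03 CPM) and Siglece just outside (0.996 CPM). Cd200r2 was just inside the silent limit with up to 3 control counts and Gpnmb just outside it with 4 in each.

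**Figure D3:**
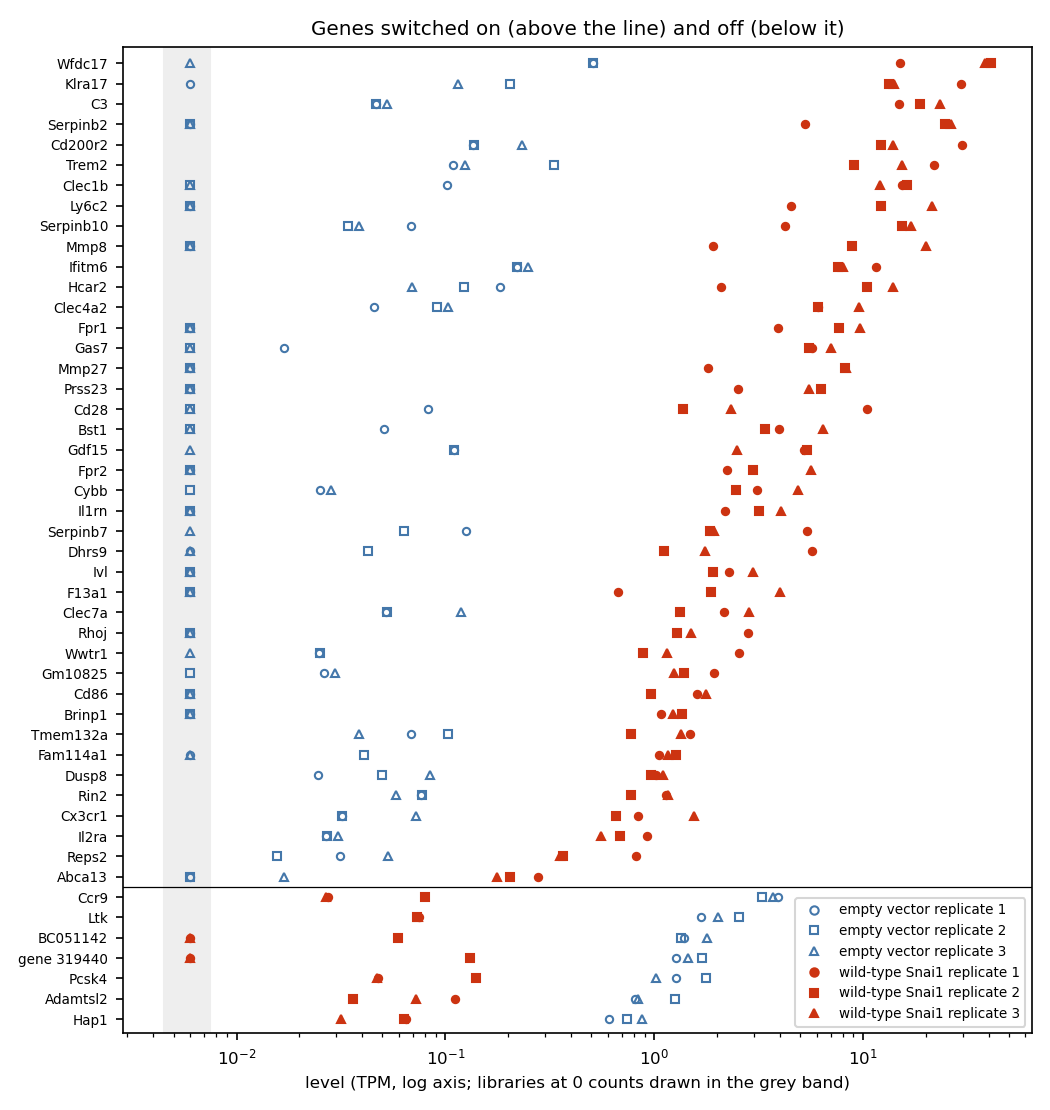
Level in TPM (horizontal, log axis) of the 41 genes switched on and the 7 switched off in each empty vector and wild-type library, with marker shapes for replicates and libraries at 0 counts in the grey band. The open control symbols and the filled wild-type symbols do not overlap for any gene, as the rule fixes, and wild-type replicate 1 is the lowest of the 3 for 16 of the genes switched on and the highest for 14.

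Secreted factors and protease regulators included the highest of them. Wfdc17, a small antiprotease-like protein of activated macrophages, had 2, 2 and 0 counts in the controls and 59, 164 and 152 in the wild-type libraries, or 15.1, 40.9 and 38.2 TPM. Complement C3 had 2 counts in each control and 633, 823 and 1017 with wild-type Snai1, or 14.8, 18.7 and 23.4 TPM. Its log2 fold change was 8.55 (SE 0.30). Serpinb2, an inhibitor of plasminogen activators, had 0 counts in every control and 90, 433 and 460 with wild-type Snai1, at least 104.8-fold higher than a floor of 3 counts per library. Its relative Serpinb10 went from 2, 1 and 1 to 123, 459 and 501 counts, and Mmp8, the collagenase of neutrophils, from 0 to 39, 185 and 416. In Serpinb2, Serpinb10 and Mmp8, wild-type replicate 1 lay well under replicates 2 and 3. The fitted call of Mmp8 (adjusted p 0.0301) was lost without wild-type replicate 1 (0.0802) or replicate 2 (0.136) and with no filter on low counts (0.144), and Mmp8 overlaps the noncoding gene Gm31751. The interleukin 1 receptor antagonist Il1rn, at 49, 73 and 92 counts from 0, was at least 22.9-fold higher, and the stress cytokine Gdf15 had a ratio of 57.8 (95% counting interval 15.6 to 483).

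Receptors known from myeloid cells followed. Klra17, a lectin-like receptor, had a ratio of 181 (95% counting interval 61.6 to 880.5), and Clec1b, the podoplanin receptor of platelets, one of 415 (95% counting interval 74.1 to 16430.1). Clec1b overlaps Clec12b in the annotation, so its reads are uncertain. Cd200r2, an activating relative of the CD200 receptor, went from 2, 2 and 3 to 436, 183 and 207 counts, and Trem2, the lipid-sensing receptor of macrophages, from 1, 3 and 1 to 199, 84 and 142. Both were highest in wild-type replicate 1. Ly6c2, an antigen of monocytes with near-identical relatives, was at least 27.7-fold higher (30, 84 and 145 counts). The formyl peptide receptors Fpr1 and Fpr2, which sense bacterial peptides, were at least 25.5-fold and 12.7-fold higher.

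Other switched on genes, named here after their values were seen, included the oxidase subunit Cybb with a ratio of 202 (95% counting interval 55.6 to 1675), the coagulation factor gene F13a1 at 22, 63 and 133 counts from 0, and the costimulatory genes Cd86 and Cd28. Cd28 rested largely on wild-type replicate 1, with 377, 51 and 85 counts against 3, 0 and 0 in the controls. Gas7, a cytoskeletal adaptor that overlaps Glp2r, went from 1, 0 and 0 to 337, 332 and 423 counts, a ratio of 1052 (95% counting interval 188 to 41570.5). Some are best known outside blood: Ivl encodes involucrin of the keratinocyte envelope, at 36, 31 and 48 counts from 0, and Wwtr1 encodes the Hippo pathway coactivator TAZ, at 102, 36 and 47 counts from 1, 1 and 0. Of the 41 genes, 16 overlap another annotated gene.

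Several switched on genes were neighbours. Serpinb7, Serpinb2 and Serpinb10 lie close together on chromosome 1, with 3.39 kb between Serpinb2 and Serpinb10. Fpr1 and Fpr2 are 3.89 kb apart on chromosome 17, Mmp8 and Mmp27 2.91 kb apart on chromosome 9, and the lectin genes Clec1b and Clec7a 56.2 kb apart on chromosome 6. Klra17 is 358 kb beyond Clec7a. The hexamer CAGGTG or CACCTG stood in 3 of 35 promoters of switched on genes, or 8.57%, whose median GC content was 47.3%.

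Switching off was rarer, with 7 genes at 1 CPM or more in every control and at 3 counts or fewer in every wild-type library. Of 11274 identifiers on in every control, 10929 were on in every wild-type library. Ccr9, the receptor of the chemokine CCL25 that guides cells to thymus and gut, was at 3.898, 3.2996 and 3.697 TPM with empty vector and 0.0273, 0.0799 and 0.0268 TPM with wild-type Snai1. The receptor tyrosine kinase gene Ltk went from 1.67, 2.54 and 2.03 to 0.0751, 0.0731 and 0.0737 TPM, the proprotein convertase gene Pcsk4 from 1.28, 1.76 and 1.02 to 0.0478, 0.1395 and 0.0469, the matrix gene Adamtsl2 from 0.807, 1.26 and 0.835 to 0.111, 0.0361 and 0.0727, and Hap1, the huntingtin-associated adaptor, from 0.6096, 0.743 and 0.876 to 0.0648, 0.0631 and 0.0318. BC051142 and the unnamed identifier 319440 made up the rest. All had been low before, under 4 TPM in every control, and their number was 16 without wild-type replicate 2 and 11 without wild-type replicate 3.

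In absolute terms the genes called higher held more of the transcript pool with wild-type Snai1. They took 23.4% ± 1.38 of all TPM in the controls and 34.1% ± 0.538 in the wild-type libraries (SD, n = 3), while genes called lower took 26.7% ± 1.62 and 18.9% ± 0.0297. These classes were chosen by the same contrast, so the shares are a description. The top of the pool kept much of its makeup, since 79 of the 100 genes with the highest mean TPM were shared by both groups.

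The 10 largest gains among called genes ranged from a lysosomal protease to lysozyme. Ctsd, the lysosomal protease cathepsin D, gained most, from 1237, 1424 and 1372 TPM to 5254, 3558 and 3496 TPM, with wild-type replicate 1 the highest. Rgs1, a brake on G protein signals of chemokine receptors, went from 902, 1021 and 1119 to 2629, 3272 and 3319.5 TPM. The ferritin heavy chain gene Fth1 (2009.7, 2013 and 1832 to 3954, 2493 and 2954 TPM) and the thioredoxin gene Txn1 (854, 1088 and 1212 to 2324, 2005 and 1952 TPM) rose less in fold, with log2 fold changes of 0.69 (SE 0.15) and 1.02 (SE 0.10). Fth1, Txn1 and the lowered Eef1a1 and Hsp90ab1 have processed pseudogenes, so their counts are uncertain. The paired inhibitory receptors Lilrb4a and Lilr4b, neighbours on chromosome 10 with similar sequence, rose, with log2 fold changes of 2.53 (SE 0.12) and 2.16 (SE 0.14). The progenitor antigen Cd34 rose by 0.62 (SE 0.12) and the mast cell protease Cpa3, already among the highest genes, by 0.29 (SE 0.06). Lysozyme, encoded by Lyz2, went from 26.7, 25.4 and 27.1 to 779, 813 and 1149.7 TPM and rose by 5.13 (SE 0.23), so that a gene near the middle of the range in controls entered the top level class.

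The largest loss was in a granule enzyme. Mpo, the myeloperoxidase of primary granules, was at 4680.0, 5150.2 and 4689 TPM with empty vector and 893, 2489 and 2824 TPM with wild-type Snai1. The groups did not overlap, yet wild-type replicate 1 was far lower than the others. Its log2 fold change of -1.20 (SE 0.36) had an adjusted p of 0.0247, which was 0.0549 without empty vector replicate 2 and 0.0620 with no filter on low counts. Eef1a1, the elongation factor that brings tRNA to the ribosome, went from 3316, 3996 and 3969 to 2843, 2222 and 2350.5 TPM. Ifitm1, an interferon-induced membrane gene, went from 1852, 2227 and 2105 to 689.95, 1176 and 1225 TPM. The ribosomal protein genes Rpl32, Rplp1 and Rpl4 fell, with log2 fold changes of -0.37, -0.39 and -0.42. The chaperone Hsp90ab1 fell by 0.22 on the same scale, the BTB protein gene Ivns1abp had a log2 fold change of -1.09, and Mir682, a row of 96 bases, one of -0.26. For so short a row the TPM is high beside the CPM, whose mean was 223 with empty vector and 186 with wild-type Snai1. A poly(A) library does not measure a hairpin as such.

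**Figure D4:**
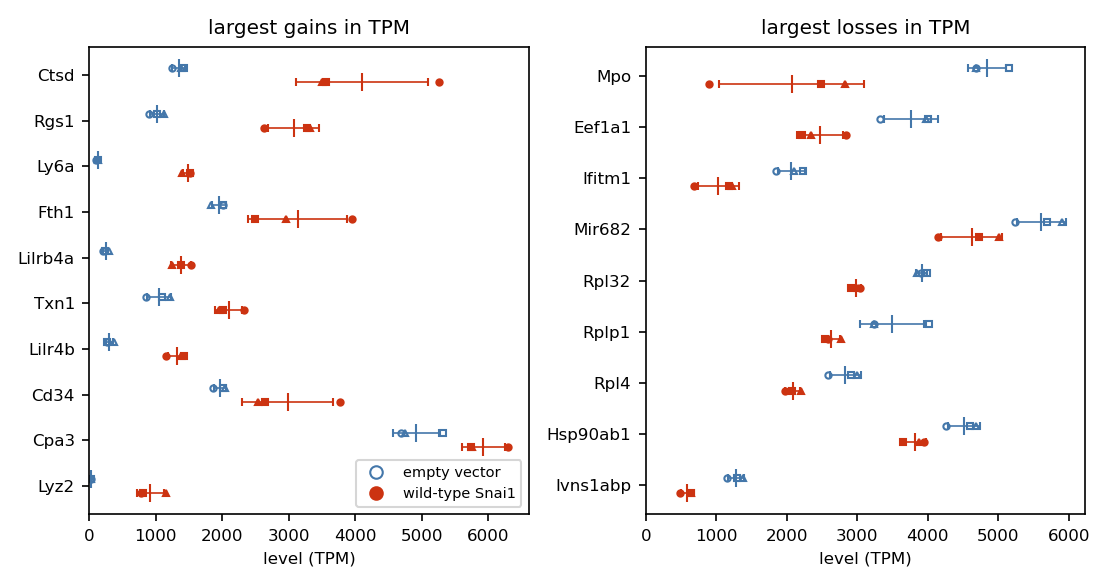
TPM (horizontal, linear from 0) of the 10 called genes with the largest gain and 9 of the 10 with the largest loss in mean TPM, with points for single libraries and a bar for the mean with 1 SD of 3 libraries. Ctsd gained 2758 TPM and Mpo lost most, from a mean of 4839.8 to 2069 TPM, and the 2 groups do not overlap for any gene shown.

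Gene lists by role are given next, each beside the background of 25.2% of tested genes called higher and 24.3% lower and a median of -0.00 over all tested genes. A listed gene that was silent in the controls was tested only if another group expressed it, so such a gene could enter a list almost only as a rise. Setting genes at 0 counts to their lower bound left the medians at the values given. With 1 library left out or another scaling, all medians between -0.19 and 0.24 moved by over 1.5 times, except that of the oxidative phosphorylation list. Of the other medians, those of the interferon and glycolysis lists moved as far. Counts that moved as far with 1 library left out are given beside each list.

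Among Snai1's partners and corepressors, 28 of 29 listed genes were tested, 5 were called higher and 9 lower, and the median log2 change was -0.08. The 5 higher calls became 2 without empty vector replicate 1 or 2 and 3 without wild-type replicate 2, and upper quartile scaling gave 3 higher and 13 lower. The CoREST-associated genes Zmym3 and Gse1 fell, with log2 fold changes of -0.71 (SE 0.06) and -0.65 (SE 0.07), as did the LIM adaptor Ajuba (-0.71, SE 0.09) and Fbxl14 (-0.73, SE 0.10), a ubiquitin ligase subunit for Snail proteins that overlaps Wnt5b. Of the SNAG and EMT transcription factors, 8 of 15 listed genes were tested, 1 was called higher and 2 lower, and the median log2 change was -0.19. Without wild-type replicate 1, 2 were higher and 5 lower, and without wild-type replicate 3 the median was -0.06 with 3 lower. Snai3, the third family member, was at 1.12, 0.829 and 1.02 TPM with empty vector and 0, 0.0736 and 0.0742 TPM with wild-type Snai1. Gfi1b fell by 0.35 (SE 0.09). Insm1, a neuroendocrine SNAG factor, was at 4.72, 4.59 and 5.46 and 1.51, 11.4 and 14.9 TPM (adjusted p 0.281), lowest in wild-type replicate 1. In the epithelial junction and polarity list, 13 of 34 listed genes were tested, 2 were called higher and 8 lower, and the median log2 change was -0.77. Its summed level was 349, 397 and 396 TPM with empty vector and 452, 353 and 344 TPM with wild-type Snai1. The groups thus overlapped in that sum. The polarity gene Pard6b went from 12.3, 14.1 and 14.5 to 2.44, 3.13 and 3.02 TPM and the tight junction gene Tjp3, which overlaps Apba3, from 18.2, 20.5 and 16.3 to 0.594, 1.04 and 0.311 TPM, while the junction gene Jup fell by 0.79 log2 units. In the mesenchymal and matrix list, 8 of 27 listed genes were tested, 8 were called higher and 0 lower, and the median log2 change was 0.70. Its members with the smallest p were adhesion genes that blood cells also express, the integrins Itga5 (0.72, SE 0.06), Itgb3 (0.52, SE 0.06) and Itgb1 (0.59, SE 0.06) and the hyaluronan receptor Cd44 (0.48, SE 0.05).

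More transcription factors of stem and progenitor cells were called lower than higher. Of these, 32 of 35 listed genes were tested, 7 were called higher and 14 lower, and the median log2 change was -0.10. Higher calls numbered 11 without wild-type replicate 1. The list summed to 5634, 5875 and 5784 TPM with empty vector and 4606, 5431 and 5397 TPM with wild-type Snai1, lowest in wild-type replicate 1. Runx1, a master regulator of blood stem cells, went from 52.8, 55.9 and 52.03 to 26.2, 27.5 and 28.4 TPM and Myb from 528, 580.1 and 584 to 385, 355 and 314 TPM. Tal1, a partner of Lmo2 in progenitors, fell by 0.45 (SE 0.07). Ikzf2, a lymphoid and progenitor zinc finger, fell by 1.12 (SE 0.07), while the bridging factor Lmo2 rose by 1.01 (SE 0.07) and Hlf, a leucine zipper factor of stem cells, by 1.21 (SE 0.09). Of monocyte and macrophage factors, 34 of 44 listed genes were tested, 19 were called higher and 3 lower, and the median log2 change was 1.23. Their summed level was 1327, 1350.0 and 1353 TPM with empty vector and 1794, 3300.1 and 4036 TPM with wild-type Snai1, lowest in wild-type replicate 1. The lower calls became 0 without empty vector replicate 1 and 1 without replicate 2, and limma-voom gave 14 higher. Mitf, a regulator of lysosomal and mast cell genes, went from 4.11, 4.46 and 4.52 to 28.8, 21.9 and 22.996 TPM, and Nfil3, a basic leucine zipper factor, from 9.97, 12.3 and 13.2 to 50.9, 73.02 and 79.7 TPM. Klf6 and Ets2 rose, with log2 fold changes of 1.97 (SE 0.15) and 1.11 (SE 0.08). Among erythroid and megakaryocyte genes, 23 of 38 listed genes were tested, 10 were called higher and 10 lower, and the median log2 change was 0.24. The median was 0.06 without empty vector replicate 1, and 6 were lower without empty vector replicate 3. The protease-activated receptors F2r and F2rl2 rose, with log2 fold changes of 1.36 (SE 0.06) and 2.91 (SE 0.15).

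Innate receptors were the list with the highest median apart from the 7 tested Ly6 family genes. Genes silent in the controls could enter a list almost only as a rise, which favours such a rank. For pattern recognition receptors, 22 of 33 listed genes were tested, 18 were called higher and 1 lower, and the median log2 change was 2.24. With a filter of 1 CPM in 3 libraries this median was 3.45, above the 2.61 of the Ly6 family list. Cd14, which hands lipopolysaccharide to its receptor, was at 0.715, 1.28 and 0.542 TPM with empty vector and 52.2, 45.9 and 73.8 TPM with wild-type Snai1. Mpeg1, a pore-forming protein of macrophages, went from 0.768, 0.442 and 0.374 to 57.3, 50.4 and 89.4 TPM. Both were near silence in the controls and in the middle of the expressed range with wild-type Snai1. Nod1, which senses peptidoglycan in the cytosol, rose by 2.53 (SE 0.19), and the lectin gene Clec4a2 by 6.43 (SE 0.44). For Fc receptors and their partners, 26 of 29 listed genes were tested, 20 were called higher and 3 lower, and the median log2 change was 1.23. The Fc receptor gene Fcgr4 went from 4.85, 4.69 and 4.44 to 73.9, 49.5 and 65.1 TPM, and the activating receptors Cd300lb and Clec5a rose, with log2 fold changes of 4.32 (SE 0.22) and 4.43 (SE 0.29). In the Ly6 family, 7 of 18 listed genes were tested, 5 were called higher and 1 lower, and the median log2 change was 3.62. Ly6c1 and Ly6i, both uncertain for their similarity, rose, with log2 fold changes of 6.03 (SE 0.27) and 3.78 (SE 0.69), and the urokinase receptor Plaur rose by 1.59 (SE 0.27).

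Receptors for cytokines and chemokines moved both ways. Of the cytokine receptors, 35 of 39 listed genes were tested, 14 were called higher and 9 lower, and the median log2 change was 0.18, or -0.04 with a filter of 1 CPM in 3 libraries and 0.05 without wild-type replicate 1. The interleukin 33 receptor Il1rl1 went from 19.7, 23.9 and 26.1 to 73.03, 64.6 and 65.5 TPM and the interleukin 18 receptor subunit Il18rap from 34.1, 35.7 and 36.5 to 109.6, 114 and 128 TPM. The Flt3 ligand receptor Flt3 went the other way, from 20.4, 20.4 and 16.2 to 1.41, 0.959 and 1.35 TPM, and the interleukin 10 receptor Il10ra from 20.3, 22.8 and 22.1 to 0.8597, 1.77 and 2.06 TPM. The common beta chain genes Csf2rb and Csf2rb2, near-identical copies, rose, with log2 fold changes of 1.85 (SE 0.19) and 1.74 (SE 0.12). Of the chemokine and lipid mediator receptors, 31 of 38 listed genes were tested, 16 were called higher and 8 lower, and the median log2 change was 0.85. Cxcr4, which retains progenitors in marrow, went from 53.6, 68.1 and 74.4 to 8.48, 9.09 and 9.88 TPM. The ATP-gated channel P2rx7 rose by 1.89 (SE 0.11).

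Ligands and secreted proteases rose in most tested members. Of the cytokine and chemokine ligands, 23 of 44 listed genes were tested, 18 were called higher and 1 lower, and the median log2 change was 1.71. The 1 lower call was lost with any single library left out but wild-type replicate 1. Ccl3 and Ccl4, which attract leukocytes and overlap each other in the annotation, went from 1.204, 1.21 and 1.03 to 72.98, 71.3 and 102 TPM and from 2.88, 3.63 and 4.31 to 55.3, 41.6 and 62.3 TPM. Csf1, the growth factor of macrophages, rose by 1.27 (SE 0.08). Of secreted proteases, activators and inhibitors, 31 of 51 listed genes were tested, 23 were called higher and 3 lower, and the median log2 change was 1.32. The metalloproteinases Mmp19 and Adam9 rose, with log2 fold changes of 2.08 (SE 0.19) and 1.28 (SE 0.12). The granule protease Prss57, which overlaps Fstl3 and Palm, went from 6.58, 7.605 and 6.83 to 0.268, 0.304 and 0.263 TPM, and the cathepsin inhibitor Cst7 from 264, 325 and 356 to 78.2, 106 and 111 TPM.

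In the neutrophil granule and oxidase list, 22 of 36 listed genes were tested, 15 were called higher and 3 lower, and the median log2 change was 0.95. Without empty vector replicate 1, 1 was lower. Its summed level was nonetheless 5717, 6317 and 5822 TPM with empty vector and 3368, 4971 and 5839.7 TPM with wild-type Snai1, and Mpo was its most abundant member. Lcn2, the iron-siderophore binder of secondary granules, went from 0.836, 0.562 and 0.476 to 151, 237 and 306 TPM, and Anxa1 rose by 1.21 (SE 0.10). In the lysosomal list, 43 of 47 listed genes were tested, 33 were called higher and 2 lower, and the median log2 change was 0.52. Its sum went from 5864, 6667 and 6700.2 to 13813, 10074 and 10273 TPM, so every wild-type library lay above every control and replicate 1 above the others. Cd68, a macrophage lysosomal glycoprotein, went from 20.1, 27.2 and 25.2 to 123, 103 and 138 TPM. The hydrolases Gla and Ctsc rose, with log2 fold changes of 1.30 (SE 0.07) and 0.94 (SE 0.07).

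Of the actin remodelling list, 41 of 47 listed genes were tested, 30 were called higher and 5 lower, and the median log2 change was 0.63, and the summed level went from 10831, 11849 and 11655 to 14430.0, 16352 and 17280.0 TPM. The filament-severing protein gelsolin, encoded by Gsn, went from 146, 149 and 141 to 685, 576 and 562 TPM, the crosslinker Actn1 from 52.6, 61.3 and 58.3 to 137, 129.6 and 132 TPM and the coronin Coro1c from 127, 143 and 151 to 245, 248 and 248 TPM. In the integrin and leukocyte adhesion list, 34 of 39 listed genes were tested, 11 were called higher and 8 lower, and the median log2 change was 0.10. Itgb7, a gut-homing integrin chain, and Itgae, its partner, fell, with log2 fold changes of -1.51 (SE 0.11) and -2.002 (SE 0.16), and Cd93 rose by 1.20 (SE 0.09). Itgae overlaps Haspin.

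Ribosomal protein genes changed little in fold, but their summed level was lower with wild-type Snai1. In the ribosomal protein list, 74 of 75 listed genes were tested, 0 were called higher and 40 lower, and the median log2 change was -0.28. Higher calls numbered 1 without wild-type replicate 1. The sum of the list went from 50155, 54982 and 50190.0 TPM to 40707, 39208 and 40887 TPM, with no overlap between groups. Rps20, Rpsa and Rpl14 fell, with log2 fold changes of -0.55, -0.48 and -0.48. Ribosomal protein genes have many near-identical copies in the genome, which makes their counts uncertain. Of the genes that assemble ribosomes, 53 of 53 listed genes were tested, 8 were called higher and 6 lower, and the median log2 change was 0.02, a value whose sign changed with the scaling. Higher calls numbered 17 without wild-type replicate 1, while 2 to 5 were higher without each other library, with 2 being the count without empty vector replicate 1. Lower calls became 3 without empty vector replicate 2. Wdr12 fell by 0.33 (SE 0.08), and its partner Bop1, which overlaps Mroh1 and Scx, rose by 0.26 (SE 0.06). Rrp1b and the polymerase subunit Polr1e fell, with log2 fold changes of -0.55 (SE 0.10) and -0.37 (SE 0.07). Of the oxidative phosphorylation subunits, 68 of 70 listed genes were tested, 28 were called higher and 3 lower, and the median log2 change was 0.21. The 3 lower calls became 1 without empty vector replicate 1 or 2 or wild-type replicate 2. Cox6b1, Ndufa5, Cox6c and Sdhc, parts of complexes of the respiratory chain, rose, with log2 fold changes of 0.61, 0.52, 0.44 and 0.38.

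Of glycolysis and glucose uptake genes, 25 of 27 listed genes were tested, 12 were called higher and 0 lower, and the median log2 change was 0.41. The last glycolytic kinase Pkm went from 975.05, 995 and 1056 to 1725, 1744 and 1919 TPM and the phosphofructokinase Pfkp from 14.5, 14.3 and 16.6 to 35.8, 56.7 and 69.2 TPM, lowest in wild-type replicate 1. Without that library 19 members were called higher, with a median of 0.63, and 1 was lower without wild-type replicate 3. Pgam1, a mutase with pseudogenes, rose by 0.87 (SE 0.13). Gapdh, whose many pseudogenes make its count uncertain, was only at 7.72, 8.75 and 10.5 and 14.8, 17.7 and 14.7 TPM. Of the sterol and fatty acid list, 39 of 40 listed genes were tested, 26 were called higher and 2 lower, and the median log2 change was 0.51. Their summed level was 4248, 5165 and 5501 TPM with empty vector and 5327, 7664 and 7475 TPM with wild-type Snai1, so wild-type replicate 1 lay within the control range. Fasn, Acat2 and Sqle, enzymes of fatty acid and sterol synthesis, rose, with log2 fold changes of 0.68 (SE 0.06), 0.70 (SE 0.11) and 0.60 (SE 0.10), while the cholesterol exporter Abcg1 fell by 2.22 (SE 0.12).

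Of DNA replication genes, 45 of 45 listed genes were tested, 19 were called higher and 4 lower, and the median log2 change was 0.08, among them the flap nuclease Fen1 (0.55, SE 0.06), the thymidine kinase Tk1 (0.54, SE 0.08) and the ribonucleotide reductase subunit Rrm2 (0.49, SE 0.07). Of mitosis genes, 46 of 47 listed genes were tested, 15 were called higher and 4 lower, and the median log2 change was 0.05, a median that turned to -0.01 under upper quartile scaling. Without wild-type replicate 1 the median was 0.19 with 25 higher, and without empty vector replicate 1 it was 0.01 with 8 higher. Lower calls became 1 without empty vector replicate 2 or 3. The kinetochore genes Spc25 and Nuf2 rose, with log2 fold changes of 0.56 (SE 0.06) and 0.33 (SE 0.07), as did the condensin genes Ncaph (0.37, SE 0.05) and Ncapg (0.46, SE 0.09). Among regulators of entry into the cycle, 27 of 28 listed genes were tested, 11 were called higher and 7 lower, and the median log2 change was 0.10. Cyclin D1, encoded by Ccnd1, went from 101, 101 and 117 to 532, 395 and 412 TPM and the activator E2f2 from 12.7, 13.8 and 15.6 to 4.005, 3.23 and 3.83 TPM. The repressor E2f7 rose by 1.04 (SE 0.08). The cyclin-dependent kinase inhibitor Cdkn1a, also a target of p53, went from 549.9, 584 and 565 to 1217, 1374 and 1480.0 TPM. In the p53 target list, 24 of 30 listed genes were tested, 15 were called higher and 2 lower, and the median log2 change was 0.79. Lower calls numbered 4 without wild-type replicate 1, and without any other single library 1 was. Mdm2, which degrades p53, rose by 1.01 (SE 0.09) and the antiproliferative gene Btg2 by 3.503 (SE 0.47), while Pltp, which overlaps Ctsa, rose by 2.79 (SE 0.31). Of apoptosis regulators, 24 of 33 listed genes were tested, 7 were called higher and 5 lower, and the median log2 change was 0.10. Bid, which links caspase signals to mitochondria, and Casp2 fell, with log2 fold changes of -1.04 (SE 0.10) and -0.82 (SE 0.07), and the survival gene Bcl2l1 rose by 0.41 (SE 0.06). Bcl2a1b, one of a family of near-identical survival genes, went from 0.156, 0.157 and 0 to 4.87, 2.602 and 3.09 TPM.

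Of interferon-stimulated genes, 40 of 51 listed genes were tested, 21 were called higher and 5 lower, and the median log2 change was 0.65. Without wild-type replicate 1 the median was 0.24, with 21 higher and 9 lower. The summed level of the list did not rise with the median. It was 4886, 5730 and 5607 TPM with empty vector and 5640.5, 4644 and 4689 TPM with wild-type Snai1. Wild-type replicates 2 and 3 thus lay under every control, and replicate 1 lay within the control range. Rsad2, an antiviral enzyme gene, was at 1.38, 2.21 and 2.11 and 9.203, 5.44 and 5.45 TPM, Ifit1 at 0.316, 0.272 and 0.462 and 5.15, 1.86 and 2.15 TPM and Gbp3 at 1.397, 1.27 and 1.59 and 7.15, 3.85 and 3.66 TPM. In all 3 genes wild-type replicate 1 was the highest library, and the other wild-type libraries still lay above every control. Ifitm6 was among the genes switched on, at 0.2198, 0.221 and 0.2501 and 11.5, 7.56 and 8.06 TPM.

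Of the T and NK cell markers, 6 of 17 listed genes were tested, 1 was called higher and 4 lower, and the median log2 change was -1.003. The kinase gene Zap70 of T cell receptor signalling went from 5.35, 5.93 and 5.09 to 0.165, 0.268 and 0.216 TPM and its partner chain Cd247, which overlaps Pou2f1, from 2.35, 2.19 and 2.204 to 0.496, 0.6603 and 0.666 TPM. Lck fell by 1.23 (SE 0.11), and the pore-forming granule gene Prf1 rose by 1.62 (SE 0.14). Of the B cell markers, 6 of 14 listed genes were tested, 2 were called higher and 3 lower, and the median log2 change was -0.81. The receptor chain Cd79b fell by 2.59 (SE 0.40), while the adaptor Blnk and the early lymphoid polymerase Dntt rose, with log2 fold changes of 1.13 (SE 0.22) and 2.16 (SE 0.31). These 3 B cell genes stayed under 10 TPM in every library.

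Of the dendritic cell and antigen presentation markers, 11 of 17 listed genes were tested, 4 were called higher and 2 lower, and the median log2 change was 0.22, a value that turned to -0.11 without wild-type replicate 1. The 2 lower calls became 1 without empty vector replicate 1 or 2 or wild-type replicate 2 or 3. The costimulatory ligand Cd80 went from 0.2796, 0.493 and 0.955 to 11.7, 6.12 and 9.63 TPM. Clec9a, a receptor for dead cells that overlaps Clec12b, was at 0 in the controls and at 1.06, 0.958 and 0.68003 TPM with wild-type Snai1. Of the mast cell and basophil markers, 11 of 19 listed genes were tested, 6 were called higher and 1 lower, and the median log2 change was 1.27. Lower calls numbered 2 without wild-type replicate 1. Their sum went from 6848, 7653 and 7117 to 8946, 8439.9 and 8462 TPM, most of it from Cpa3 and Kit. The histamine enzyme gene Hdc went the other way, from 6.35, 6.95 and 8.93 to 0.909, 1.97 and 2.88 TPM, and Mcpt8, which defines basophils, had 0 counts in all 6 libraries.

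**Figure D5:**
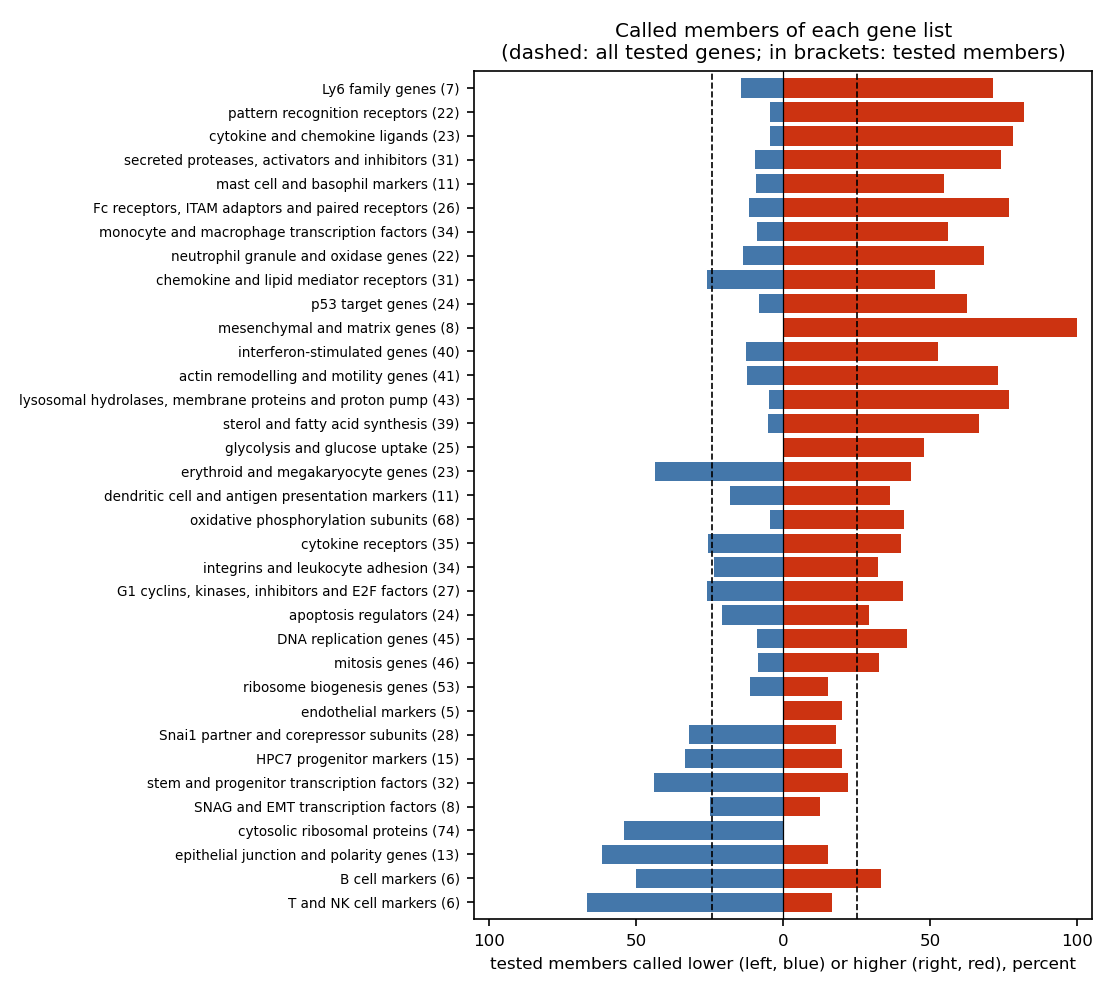
Percent of the tested members of each gene list called lower (left, blue) or higher (right, red) with wild-type Snai1, ordered by the median log2 fold change, for lists with at least 5 tested members. Dashed lines mark the shares over all tested genes, 24.3% lower and 25.2% higher, and in the ribosomal protein list 40 of 74 members were lower and 0 higher.

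Genes by which wild-type replicate 1 stood apart, picked after their values were seen, included immediate early factors. Egr3, an immediate early factor, was at 6.97, 2.88 and 2.58 TPM with empty vector and 12.2, 269 and 377 TPM with wild-type Snai1. Nr4a1, also an immediate early gene, was at 27.9, 24.9 and 28.2 and 37.1, 240.1 and 407 TPM. In both, replicate 1 lay near the controls while the other two lay far above. The cytotoxic protease gene Gzmb was at 72.4, 72.6 and 61.3 and 4.74, 48.98 and 94.03 TPM, with replicate 1 far under every other library. On the high side in replicate 1 were the organic anion transporter gene Slco4a1, at 110.1, 122 and 134 and 439, 86.9 and 68.7 TPM, and the glycine transporter gene Slc6a9, at 32.9, 37.4 and 43.5 and 62.6, 15.5 and 13.5 TPM. Among the 2-fold raised genes, the median log2 change was 1.75, 1.71 and 1.79 for wild-type replicates 1, 2 and 3, each set against the controls. Among the 2-fold lowered genes it was -1.65, -1.56 and -1.50 in the same order. Both sets were chosen by a fit that included these 3 libraries, which favours genes in which the libraries are alike. These medians thus cannot tell how far replicate 1 stood apart.

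Values with mutant Snai1 are given beside those of the wild type, with which they share the controls. Against empty vector 1 of 12484 genes was called (0.00801%), Snai1 itself, while wild type against mutant gave 3053 higher (24.5%) and 2924 lower (23.4%). Hook1 was at 59.4, 65.7 and 60.7 TPM with the mutant, Ly6a at 133, 111 and 132, Ctsd at 1548, 1554 and 1558 and Mpo at 5413, 5304 and 5224. The 41 switched on genes summed to 3.25, 2.37 and 2.65 TPM in the mutant libraries, and none of them reached 1 CPM in all 3. By the limit of at most 3 counts in each library, 31 of the 41 were silent in every mutant library. All 41, and the 7 switched off, were called between wild type and mutant. They were chosen by the same wild-type counts that enter this comparison, so the choice itself favoured such calls. Chrnb1 was at 59.1, 64.5 and 60.4 TPM with the mutant, above the 36.96, 40.6 and 42.2 TPM of the controls in every library, a difference with an adjusted p of 0.156. The difference between wild type and mutant in Gfi1b, with 83.2, 79.3 and 80.5 TPM in the mutant libraries, had an adjusted p of 0.245.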

How the data were processed

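RNA of sorted HPC7 cells was made into TruSeq stranded mRNA libraries, per the labels' protocols. The authors deposited unscaled counts for each gene, made with featureCounts on mm10 per the submitters' processing notes, and a gene length. The aligner, the annotation and the strand setting are not given in the sources used here, so reads of overlapping or near-identical genes are uncertain. Symbols came from RefSeq GRCm38.p6 for 25275 of 27179 identifiers and from GENCODE M21 for 18.

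Counts were tested with edgeR 4.0.16 in R 4.3.3 (filterByExpr, TMM, robust quasi-likelihood fit over 9 libraries, with no replicate block), with Benjamini-Hochberg adjustment over 12484 genes and a call at an adjusted p under 0.05. The SE is the size of the log2 fold change divided by the square root of F. The script was tested on simulated data. TPM used the deposited length. Ratios of genes with 1 to 3 counts in a group carry exact 95% intervals. Both these intervals and the floors take in counting error alone, since copied reads are not independent molecules.

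The genes, the 36 lists (1182 of 1186 distinct symbols matched) and the tests were chosen with earlier results of these data known. Named were Snai1 and Kdm1a, the 4 tested members of lowest adjusted p in each list, the 10 highest switched genes in each direction, the 10 largest gains and losses in TPM, the 8 smallest p in each direction and 6 promoters, passing over placeholder symbols; others are marked. Some genes that the rule selects are not reported here.

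Alternatives were RLE, upper quartile and total-count scaling, 2 other filters, DESeq2 1.42.0, limma-voom (3.58.1), the 6 libraries alone, a replicate block, leaving out each library, other switch limits and other promoter windows. Added after seeing the data were fits without the unnamed identifier that led empty vector replicate 1 and Lars2, any listed start, and the other E-boxes. The smallest two-sided p of an exact permutation test of 3 against 3 libraries is 0.1, so none is given for single values.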

Additional observations from a re-analysis of the deposited data

How the results depend on the processing

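Counts of called genes depended on the scaling in their balance more than in their sum. Upper quartile scaling gave 2614 higher and 3607 lower, library totals 2668 and 3323, RLE size factors 3223 and 2928, DESeq2 3264 and 2934, and limma-voom 3058 and 3062. Leaving out 1 library gave 2599 to 3779 higher and 2507 to 3631 lower, and using only the 6 libraries gave 2724 and 2577. With the replicate block 2976 genes were higher and 2910 lower, 817 and 718 of them at least 2-fold. Samples of equal number did not deviate together (correlations of their deviations between empty vector and wild type -0.0873, -0.00951 and -0.0615), so they were not treated as pairs. Without Lars2 and the unnamed identifier that led empty vector replicate 1, the counts were 3045 and 3114.

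Switch counts followed their limits. The number switched on was 13 at 0 counts, 104 at up to 10 counts, 82 at 0.5 CPM and 17 at 2 CPM, and 44 to 53 with 1 library left out. The number switched off was 0, 49, 16 and 2 under the same limits, and 7 to 16 with 1 library left out.

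Of 2859 pairs of a named gene and an alternative, 2838 kept direction and call. The log2 change of Kdm1a, near 0, was -0.054 under upper quartile scaling, -0.037 with totals, -0.0076 with no filter, -0.0028 without the same 2 rows and -0.0079 to 0.038 with 1 library left out. That of Pecam1, not called, was -0.062 to 0.020 with 1 library left out, the highest without wild-type replicate 1. Depth limits the switched genes, whose silent group rests on at most 3 counts per library.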
